A study of Mus musculus with 25 samples.

Results

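The genes described here are 93 of the 9931 genes with a symbol in a table of sorted cortical neurons, chosen because their symbols name a G protein subunit, an RGS protein, an adenylyl cyclase, a phosphodiesterase, a subunit of protein kinase A (PKA), an A-kinase anchoring protein (AKAP), or a Rap GTPase or Rap exchange factor. The rule used names only and no measured value, and 6 of the 93, among them the AMPK subunits Prkaa2 and Prkag1, are matched by name only. Heterotrimeric G proteins carry signals from cell-surface receptors. The stimulatory alpha subunit turns on adenylyl cyclase, which makes cyclic AMP, the inhibitory alpha subunits turn it off, and RGS proteins speed the return of alpha subunits to rest. Cyclic AMP acts through PKA, which AKAPs hold at chosen sites, and through Epac proteins, which load the GTPase Rap, while phosphodiesterases destroy it. In neurons cyclic AMP is best known for its part in synaptic plasticity and in the capacity of an injured axon to grow.

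The 25 libraries came from C57BL/6 mice, all of which carried floxed alleles of Rest, the gene of the transcriptional repressor REST, and a tdTomato reporter behind a floxed stop. Sensorimotor cortex received adeno-associated virus with either GFP (called WT, although these mice also carry the floxed alleles) or Cre recombinase (REST cKO), in both cases behind the neuronal synapsin promoter. The mice then had a sham operation or a complete crush of the spinal cord at thoracic level 10 (SCI), and fluorescent neurons were sorted and sequenced from the 3′ ends of their transcripts. The labels put the SCI libraries at day 1, 3 or 7 and the sham libraries at day 0. The 8 groups were WT sham (4 libraries), WT SCI at day 1, day 3 and day 7 (3 each), REST cKO sham (3), and REST cKO SCI at day 1 (2), day 3 (4) and day 7 (3). Sex was uneven, since all WT day 7 libraries were female and all REST cKO sham and day 7 libraries were male.

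Every level below is a normalised log2 value as deposited. A difference given with a standard error (SE) is the coefficient of a limma fit that holds the group means together with 2 sequencing components, so that it is adjusted for these components and need not equal the difference of the listed values. The depth of each library is unknown, since the table holds no counts. The share of the 9931 genes with a value under -2 was 29.5% in WT day 3 replicate 5 and ran from 2.77% to 16.98% in the other libraries. The correlation of the members with this share over the 25 libraries ran from -0.561 in Pde4dip to 0.356 in Rap1b. Without WT day 3 replicate 5 it was -0.140 in Pde4dip and -0.088 in Rap1b. The base 2 comes from the study's own description, and the values, from -4.82 to 5.16, do not add up to a known read total when unlogged, so that no linear folds are given. The values are not per length, so that levels are compared between libraries and not between genes. The labelled cell type was checked against marker genes. All 8 general neuronal markers were measured, and their mean ranged from -0.14 to 2.48 over the libraries. Of 9 markers of excitatory neurons 7 were measured (-0.39 to 1.67), and 3 markers of inhibitory neurons were measured (-1.71 to 1.28). All 10 microglial markers were measured too, with a mean of 2.64 to 3.36 in every library, and so were all 10 of endothelial and mural cells (0.98 to 2.48), 5 of 8 of astrocytes (0.18 to 2.67) and 7 of 8 of oligodendrocytes (-1.21 to 2.54). The microglial mean thus stood above the neuronal mean in every library. How far the sorted pools were neurons was not tested, and these markers do not settle the label. In sorted pools of this kind, fewer cells of a type and less RNA per cell cannot be told apart. Of the 93 members 15 are known from glial, immune or vascular cells, such as Rgs1, Rgs5, Gng11 and Adcy4, and the part of other cells in their values was not tested.

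In their relation to the sequencing components 5 members stand apart. For most genes the correlation with both components over the 25 libraries was 0 to within 3.94e-10. The study states that, for its co-expression networks, a linear model removed sequencing and alignment covariates from its normalised values. Whether the deposited values went through that step was not tested. The correlation was larger than 1e-05 in 140 of the 9931 genes (1.41%), among them Rest itself and the members Prkar1b, Prkar2b, Gnai1, Adcy3 and Rgs20. In 67 of these 140 genes a change to 1 single value brought both correlations to 0. The required value was the deposited number with its sign reversed in 36 genes, and in 30 more it differed from the deposited number, or from its reverse, by a whole number, in both cases to within 1e-05. All 67 values lay in the 13 libraries of day 3 or day 7 and 0 in the 12 libraries of sham or day 1, and 25 lay in replicate 4 of WT day 7.

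In Prkar1b the value concerned was that of WT day 7 replicate 4, deposited as -1.03, where 1.03 gives zero correlation. In Prkar2b it was the same library (-0.87 deposited, 0.87 at zero correlation), and in Gnai1 too (-2.31 deposited, 2.31 at zero correlation). In Adcy3 it was REST cKO day 3 replicate 15, deposited as 0.75, where -0.75 gives zero correlation. No change to 1 value served for Rgs20. A pair served there, with WT day 7 replicate 4 going from -1.35 to 1.35 and REST cKO day 7 replicate 2 from 0.10 to -3.10, and it was the only such pair among the sign reversals and added numbers up to 5 that were searched. In each of the 5 members the fitted difference REST cKO minus WT at the time of these values, day 3 for Adcy3 and day 7 for the others, was larger as deposited than at zero correlation, and so was the mean over the 4 times. At other times it was smaller in some, as in sham for Prkar1b (0.43 as deposited, 0.61 at zero correlation). What set these values was not tested. Results for the 5 members are therefore given both as deposited and with the values at zero correlation.

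**Figure D1:**
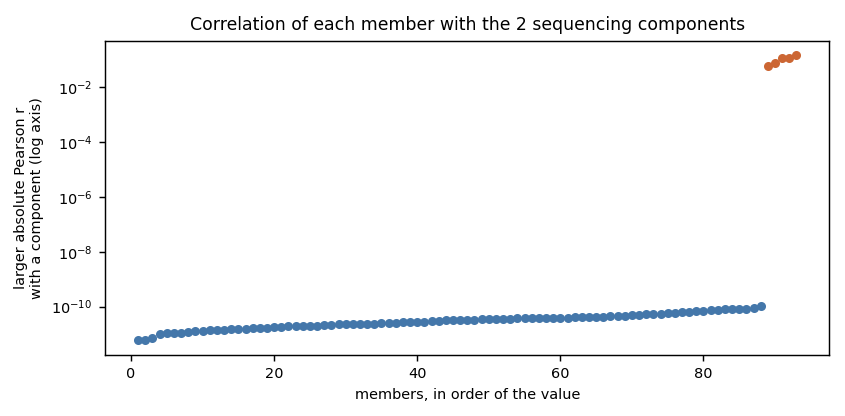
The larger absolute Pearson correlation (log axis) of each of the 93 members with the 2 sequencing components over 25 libraries, members placed in order of that value. Prkar1b, Prkar2b, Gnai1, Adcy3 and Rgs20 (orange) lie between 0.0609 and 0.151, and the other members (blue) below 1e-05.

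No member passed an adjusted p of 0.1 in any of the 15 tests by limma, with Benjamini-Hochberg adjustment over all 9931 genes. The same held over the whole table for most of them. The share of all genes called was 0 in WT day 1 and day 7 against sham, in REST cKO day 1 and day 7 against sham, in REST cKO against WT at day 1, day 3 and day 7, and in the interaction at day 3. It was 0.0101% for WT day 3 against sham, for the mean genotype difference and for any difference among the 8 groups. It was 0.0201% for REST cKO day 3 against sham, for SCI against sham averaged over days and genotypes and for the interaction at day 7, and 0.0302% for REST cKO against WT in sham. What follows therefore describes sizes, spreads and unadjusted p-values, and shows no member to have changed.

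At an unadjusted p under 0.05 the members followed the table as a whole. After injury in WT, 6 members passed at day 1 (6.45% of 93, against 6.43% of all genes), 6 at day 3 (6.45% against 6.90%) and 8 at day 7 (8.6% against 6.89%). After injury in REST cKO the counts were 3 at day 1 (3.23% against 5.29%), 2 at day 3 (2.15% against 4.65%) and 7 at day 7 (7.53% against 5.67%). Between genotypes they were 7 in sham (7.53% against 6.91%), 3 at day 1 (3.23% against 3.81%), 6 at day 3 (6.45% against 6.37%) and 13 at day 7 (14% against 9.95%). The mean genotype difference over the 4 times gave 8 (8.6% against 8.53%), SCI against sham 3 (3.23% against 5.97%), the interaction 3 at day 3 (3.23% against 5.15%) and 8 at day 7 (8.6% against 6.35%), and any difference among the groups 9 (9.68% against 8.50%). Day 7 between genotypes was where the members' share stood farthest above the background, and this count stayed at 13 with the 5 members at zero correlation. There the count for REST cKO day 3 against sham became 1, those for the mean genotype difference and the day 7 interaction 7 each, and that for SCI against sham 4.

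**Figure D2:**
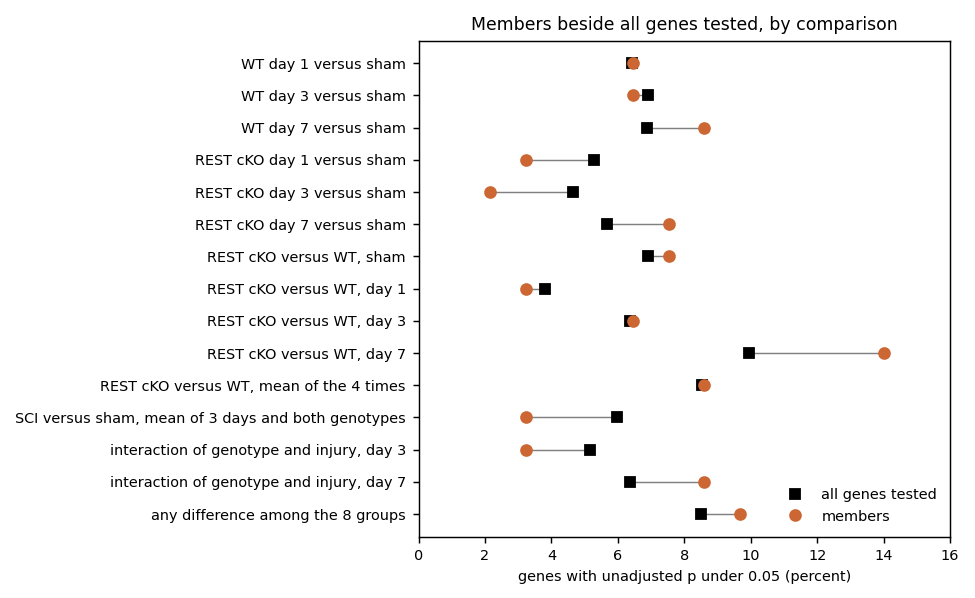
The percentage of genes with an unadjusted p under 0.05 (limma, two-sided) in each of the 15 tests, for the 93 members (orange circles) and all 9931 genes (black squares). The members reach 14% against 9.95% for REST cKO versus WT at day 7 and lie near or below the background in most other tests.

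Epac2, encoded by Rapgef4 (chromosome 2, 71981240 to 72257474, plus strand, GRCm38), is a Rap exchange factor opened directly by cyclic AMP and typical of brain and endocrine cells. It had the smallest p of the 93 members for the mean genotype difference, a place it kept in 24 of 33 other settings. Its mean over the 25 libraries lay below 0, so that the setting with a mean of at least 0 left it out. In WT sham its 4 values were -3.12, -0.82, -0.42 and 0.55, and in REST cKO sham they were 0.31, 0.40 and 1.47. At day 1 the WT values were -2.36, -0.54 and 2.40, beside 2.52 and 2.54 in REST cKO. Both REST cKO libraries lay above all WT libraries there, although the highest WT library came close.

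At day 3 Rapgef4 stood at -2.29, -0.65 and 0.78 in WT and at -0.38, -0.10, 1.02 and 1.28 in REST cKO, so that the groups overlapped. At day 7 the WT values were -3.60, -3.24 and -0.10 and those of REST cKO were -1.90, 0.76 and 1.60, which again overlapped. The mean was higher in REST cKO at each of the 4 times. By mean level the 8 groups ran from REST cKO day 1 (2.53 ± 0.01, SD, n = 2) through REST cKO sham (0.72 ± 0.65, n = 3), REST cKO day 3 (0.45 ± 0.82, n = 4), REST cKO day 7 (0.15 ± 1.83, n = 3), WT day 1 (-0.17 ± 2.40, n = 3), WT day 3 (-0.72 ± 1.53, n = 3) and WT sham (-0.95 ± 1.56, n = 4) to WT day 7 (-2.31 ± 1.93, n = 3). Apart from the first step, neighbours in that order differ by less than their SD.

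Averaged over the 4 times, Rapgef4 was 2.22 higher in REST cKO than in WT (SE 0.65, limma unadjusted p = 0.00219, adjusted p = 0.441). The fitted difference was 2.46 in sham (SE 1.37), 3.31 at day 1 (SE 1.60), 0.62 at day 3 (SE 1.27) and 2.49 at day 7 (SE 1.27), with limma adjusted p-values from 0.523 to 0.999. The group means themselves lay 1.68 apart in sham. At day 1 they lay 2.70 apart, at day 3 1.17 and at day 7 2.46, so that the adjustment for the components moved the value at day 3 most in proportion. With a term for sex the day 3 difference was 0.33, and with library weights 1.04. The day 7 difference was 1.501 after quantile normalization. Without WT day 3 replicate 22 the day 3 difference was -0.047, and without replicate 5 it was 1.42. The day 1 difference was 5.78 without WT day 1 replicate 8, and the sham difference 1.54 without WT sham replicate 10. The labels put the libraries in 3 batches without saying what a batch was, the batches hold different mixes of days, and the plain REST cKO minus WT difference was 2.23 in the first (3 and 7 libraries), 1.63 in the second (5 and 5) and 2.86 in the third (4 and 1). Over the 25 libraries Rapgef4 correlated with the neuronal marker mean at r = 0.379 and with the microglial mean at r = -0.438, values that share each library's sorting and depth and whose part in the genotype difference was not tested.

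RefSeq promoter windows on GRCm38.p6 were found for 77 of the members, and they were searched on both strands for the cyclic AMP response element TGACGTCA and for TTCAGCACC and GGACAGCGC, pieces of the RE1 element to which REST binds. The response element stood in 2 of 77 members (2.6%) against 3.54% of the 7748 tested genes with a window, the first RE1 piece in 0 (0% against 0.465%) and the second in 1, Gnai1 (1.3% against 0.865%). Rapgef4 held none of these letters in its window. The search took exact letters close to the start only, so that it does not show whether REST binds at Rapgef4. The 250 bases before the start of Rapgef4 are shown because it leads the genotype comparison, and those of Prkar1a and Rap1b because they hold the response element, in capitals. The windows are chr2:71980965-71981214 (plus strand), chr11:109650699-109650948 (plus) and chr10:117845975-117846224 (minus).
Rapgef4: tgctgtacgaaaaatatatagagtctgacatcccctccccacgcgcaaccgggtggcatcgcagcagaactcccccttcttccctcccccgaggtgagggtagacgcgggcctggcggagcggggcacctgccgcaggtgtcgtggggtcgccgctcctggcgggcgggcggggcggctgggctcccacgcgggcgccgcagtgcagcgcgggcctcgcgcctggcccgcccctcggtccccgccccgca
Prkar1a: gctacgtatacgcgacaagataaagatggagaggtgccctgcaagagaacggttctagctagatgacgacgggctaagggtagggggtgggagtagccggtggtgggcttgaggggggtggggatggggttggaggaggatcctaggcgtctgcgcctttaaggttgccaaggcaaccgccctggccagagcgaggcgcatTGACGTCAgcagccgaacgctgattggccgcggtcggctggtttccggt
Rap1b: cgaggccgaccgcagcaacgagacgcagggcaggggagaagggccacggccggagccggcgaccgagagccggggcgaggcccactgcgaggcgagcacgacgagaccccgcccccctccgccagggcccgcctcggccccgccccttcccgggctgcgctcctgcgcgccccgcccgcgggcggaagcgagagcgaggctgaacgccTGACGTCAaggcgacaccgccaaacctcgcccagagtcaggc
The element begins 49 bases before the start in Prkar1a and 42 before it in Rap1b, and neither gene passed the adjusted threshold in any test.

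The other cyclic AMP effectors were set beside Rapgef4. Rapgef3 encodes Epac1, the Epac protein of broader distribution, known also from vascular cells. Its genotype difference averaged 0.04 (SE 0.52, limma adjusted p = 0.991), with a 95% interval from -1.03 to 1.10. With 1 library left out it ran from -0.31 to 0.31, so that it had no steady sign. Its group means ran from -0.59 ± 1.93 (SD, n = 3) in WT day 3 to 1.22 ± 0.71 (n = 3) in REST cKO sham. Rapgef2, a Rap exchange factor of neurons and endocrine cells, differed by 0.20 (SE 0.39, limma adjusted p = 0.943), with a 95% interval from -0.59 to 1.00, and by 0.02 to 0.41 with 1 library left out. Its means lay between 1.61 ± 1.79 (n = 3) in REST cKO day 7 and 2.41 ± 0.60 (n = 3) in REST cKO sham.

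The catalytic subunits of PKA, Prkaca and Prkacb, had the lowest SDs of the 9 effector genes over the 25 libraries, 0.398 and 0.382. Prkaca differed between genotypes by -0.01 on average (SE 0.22, limma adjusted p = 0.996, 95% interval -0.46 to 0.44), and Prkacb by 0.14 (SE 0.18, limma adjusted p = 0.896, 95% interval -0.22 to 0.51). Prkacb means ran from 2.48 ± 0.11 (n = 3) in WT day 7 to 2.91 ± 0.72 (n = 2) in REST cKO day 1. Prkar1a, the widely used type I regulatory subunit, differed by 0.08 (SE 0.21, limma adjusted p = 0.958, 95% interval -0.34 to 0.51). Prkar2a, a type II subunit, differed by 0.53 (SE 0.57, limma adjusted p = 0.863, 95% interval -0.65 to 1.71), or by 0.014 without WT day 3 replicate 5, 0.06 with library weights and 0.08 after quantile normalization. In REST cKO day 3 all 4 libraries of Prkar1a (1.61 to 2.33) lay below REST cKO sham (2.38 to 2.53), by a logged difference of -0.70 (SE 0.41, limma adjusted p = 0.999).

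Prkar1b, the type I regulatory subunit enriched in brain (chromosome 5, 139017306 to 139150001, minus strand), had the smallest p of the 93 members for any difference among the groups as deposited (limma F-test, adjusted p = 0.320). At zero correlation it lost that place to Rgs7 (limma F-test, adjusted p = 0.413), and it kept it in 24 of 33 settings. As deposited, its WT day 7 values were -1.03, -0.74 and -0.37, below all other 22 libraries, which ran from 0.71 in WT day 3 to 2.41 in the same group. REST cKO day 7 stood at 1.09, 1.14 and 1.95, and WT sham at 0.91, 1.20, 1.47 and 1.89. With the value of replicate 4 at 1.03, as zero correlation requires, WT day 7 reached into the range of WT sham and to just below REST cKO day 7.

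The difference of Prkar1b between REST cKO and WT at day 7 was 2.14 (SE 0.55, limma adjusted p = 0.175) as deposited and 1.48 (SE 0.56, limma adjusted p = 0.357) at zero correlation. WT day 7 against sham gave -2.09 (SE 0.52, limma adjusted p = 0.267) as deposited and -1.34 (SE 0.53, limma adjusted p = 0.572) at zero correlation. The F-test over the groups had a limma adjusted p of 0.320 as deposited and 0.583 at zero correlation. Prkar2b, the type II regulatory subunit enriched in brain and fat, held -2.89, -2.70 and -0.87 in WT day 7 as deposited, against 0.52, 1.65 and 2.26 in REST cKO day 7. The groups did not overlap as deposited, and did with -0.87 replaced by 0.87. Its day 7 difference between genotypes was 3.68 (SE 1.14, limma adjusted p = 0.238) as deposited and 3.13 (SE 1.21, limma adjusted p = 0.362) at zero correlation.

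**Figure D3:**
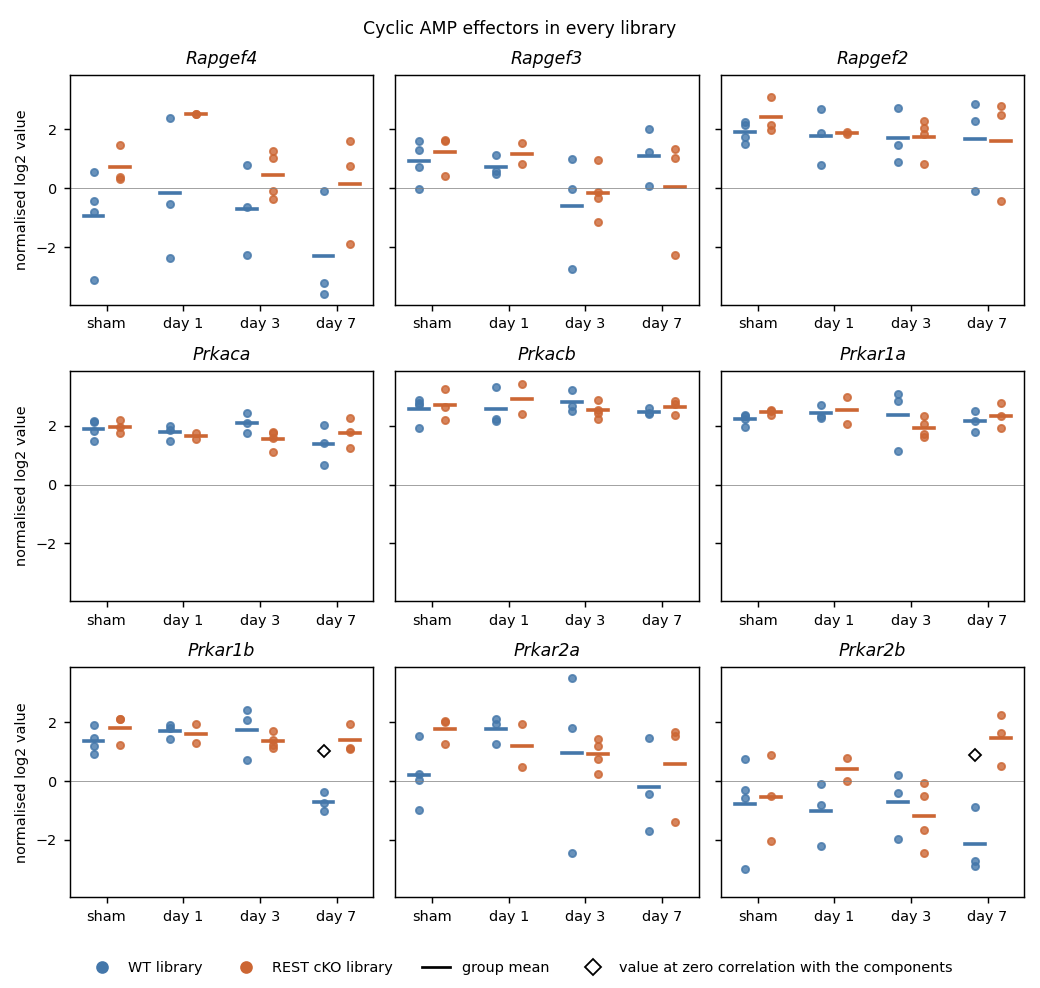
Normalised log2 value of 9 cyclic AMP effector genes in each WT (blue) and REST cKO (orange) library by time, with group means as bars and, as open diamonds, the value that takes a gene's correlation with the sequencing components to 0. Rapgef4 means are higher in REST cKO at each time, with overlap in sham, day 3 and day 7, Prkaca and Prkacb stay within a narrow band, and in Prkar1b and Prkar2b 1 of the 3 low WT day 7 values lies at 1.03 or 0.87 as a diamond.

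By Pearson correlation over the 25 libraries, given as a description because all values of a library share its depth and cells, the members most like Rapgef4 were Pde3a (r = 0.548), Prkar1b (0.523), Rgs20 (0.522), Prkar2b (0.457) and Adcy9 (0.444). With values at zero correlation Prkar1b stood at 0.421, Rgs20 at 0.311 and Prkar2b at 0.361. The least alike were Rgs1 (-0.431), Rgs2 (-0.428) and Akap9 (-0.406). Pde3a encodes a phosphodiesterase that cyclic GMP inhibits, and its day 1 values were -1.31, -0.74 and 0.01 in WT and 1.34 and 2.84 in REST cKO. That difference, 3.83 (SE 1.56), had a limma adjusted p of 0.999.

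AKAPs are scaffolds that bind PKA regulatory subunits and place the kinase beside its targets. Of the 12 measured, 8 had a difference between REST cKO and WT above 0 at day 7 (66.7%, against 60.5% of all genes), with a median of 0.46 beside 0.23 over all genes. At an unadjusted p under 0.05 there were 3 (25%, against 9.95% of all genes). Akap7, whose products anchor PKA at ion channels, had the smallest p of all members there, as in 26 of 33 other settings, and its correlation with the components was 0 within tolerance. Its values in WT day 7 were -3.06, -2.01 and -0.70, and in REST cKO day 7 they were 1.27, 1.62 and 2.53. The groups stood apart, with WT day 7 also below WT sham (0.02, 0.18, 1.72 and 2.28). At day 3 Akap7 stood at 0.50, 0.58 and 0.61 in WT and between -1.72 and 0.50 in REST cKO.

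The day 7 difference of Akap7 between genotypes was 3.87 (SE 0.96, limma unadjusted p = 0.000446, adjusted p = 0.169), and its interaction with injury 5.27 (SE 1.44, limma adjusted p = 0.426). WT day 7 against sham gave -2.997 (SE 0.91, limma adjusted p = 0.420), and REST cKO day 7 against sham 2.28 (SE 1.02, limma adjusted p = 0.862). REST cKO day 1 against sham gave 2.27 (SE 1.05, limma adjusted p = 0.924), or 1.28 without day 1 replicate 25, 1.47 without sham replicate 18 and 3.23 without day 1 replicate 19. Genotype and sex cannot be told apart at day 7. With a term for sex in the fit the day 7 difference was 3.38 (limma adjusted p = 0.351). Akap6, a scaffold of the nuclear envelope in neurons and muscle, was named after its values were seen. It differed by 3.12 at day 7 (SE 1.00, limma adjusted p = 0.262), or by 2.08 after quantile normalization.

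Akap5, the postsynaptic scaffold that binds PKA, calcineurin and protein kinase C, was higher in WT day 1 (2.52, 3.06 and 3.29) than in WT sham (1.81, 2.25, 2.50 and 2.51). The difference of 0.74 (SE 0.27) had a limma adjusted p of 0.639. Akap8l, a nuclear member, had a difference of -0.72 between SCI and sham over both genotypes (SE 0.40, limma adjusted p = 0.876).

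**Figure D4:**
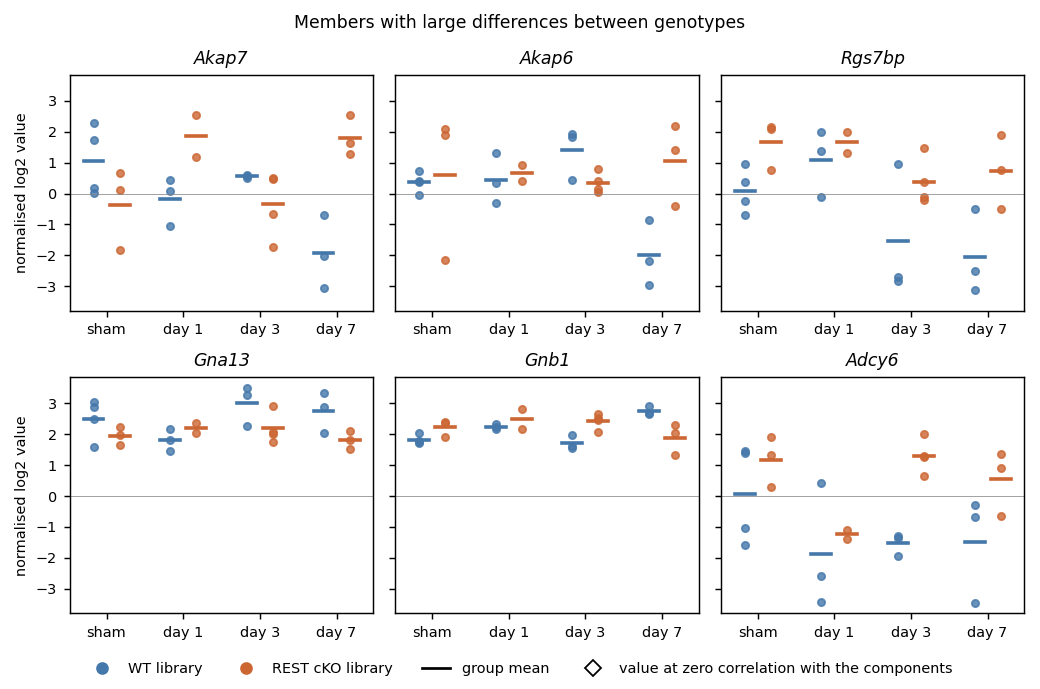
Normalised log2 value of 6 members with large genotype differences in each WT (blue) and REST cKO (orange) library by time, bars giving group means. Akap7, Akap6 and Rgs7bp are low in WT day 7 and high in REST cKO day 7, Gnb1 shows the opposite order, and Adcy6 separates the genotypes at day 3.

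At day 7 between genotypes, 19 of the 93 members had libraries that did not overlap (20.4%, against 12.4% of all genes), 15 higher and 4 lower in REST cKO. At zero correlation Rgs20 and Prkar2b left that count, which fell to 17. At day 1, with only 2 REST cKO libraries, the count was 18 (19.4% against 18.6%), at day 3 it was 10 (10.8% against 7.59%) and in sham 5 (5.38% against 7.86%). The share of all genes under -2 did not overlap between the day 7 groups either, at 11.1% to 16.98% in WT and 2.77% to 10.7% in REST cKO, and its part in the members' differences was not tested. The median difference of the members at day 7 was 0.30 as deposited and 0.28 at zero correlation, beside 0.23 for all genes, and 61 of 93 were above 0 (65.6%, against 60.5% of all genes). With a term for sex the median was 0.17 for the members and 0.19 for all genes, so that the order turned. After quantile normalization, which moved the median of all genes to -0.03, it was 0.14, with 55 members above 0 (59.1% against 48.5%). All 6 PKA subunits and all 6 adenylyl cyclases had differences above 0, with medians of 0.65 and 0.95 as deposited and 0.65 and 0.91 at zero correlation. With a term for sex 5 of 6 were above 0 in each list, and with library weights or after quantile normalization 5 of 6 cyclases. The median of the PKA subunits was 0.36 with a term for sex, 0.33 with library weights and 0.25 after quantile normalization. That of the cyclases was 0.84, 0.48 and 0.28 in the same order, and 0.15 for the 2 cyclases with a mean of at least 0. Of these 12 genes 2, Prkar1b and Prkar2b, reached an unadjusted p under 0.05 (16.7%, against 9.95% of all genes), as deposited and at zero correlation. Of 13 RGS genes 9 were above 0 (69.2%), with a median of 0.61 as deposited and 0.28 at zero correlation, where Rgs20 went from 2.11 to 0.27. The RGS median was 0.40 with a term for sex. Of 13 phosphodiesterases of cyclic AMP 7 were above 0 (53.8%, median 0.15), but their median turned to -0.06 with library weights (6 above 0) and to -0.23 after quantile normalization (5 above 0), and it was 0.0069 with a term for sex. The neuronal markers of the same libraries averaged 0.30 to 1.66 in WT day 7 and 1.33 to 1.81 in REST cKO day 7, with 2 of 8 higher at an unadjusted p under 0.05, and their part in the members' differences was not tested.

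**Figure D5:**
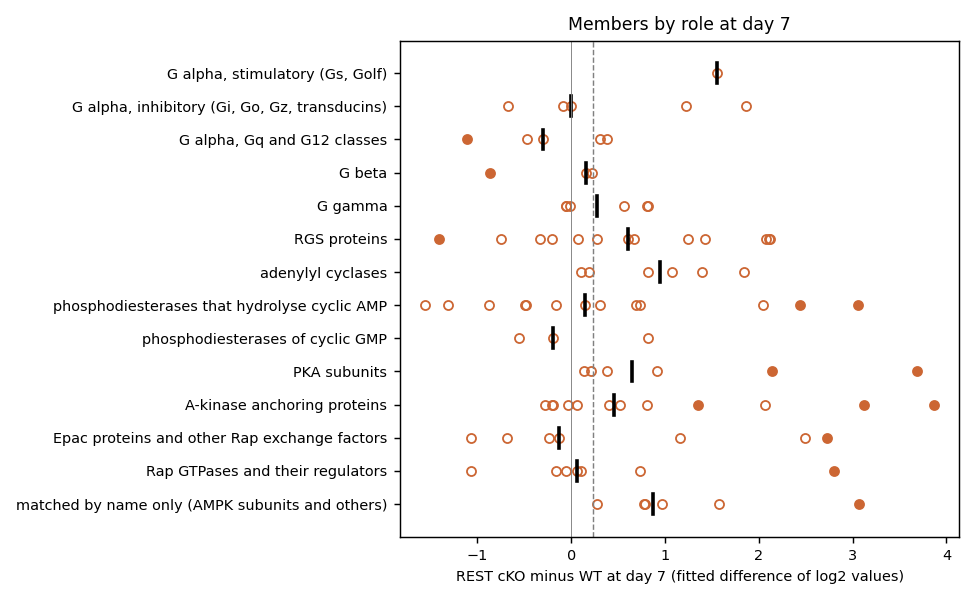
Fitted difference of log2 values between REST cKO and WT at day 7, as deposited, for each of the 93 members, grouped by role (filled circles have an unadjusted limma p under 0.05, black bars are list medians, the dashed line is the median of all genes, 0.23). PKA subunits and adenylyl cyclases lie above 0 in all 6 cases each (5 each with a term for sex, and 5 cyclases with library weights or quantile normalization), and the 3 filled circles on the left are Gna13, Gnb1 and Rgs1.

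Among the G protein subunits, Gnb1, the main beta subunit of brain, was 2.66, 2.67 and 2.91 in WT day 7, above WT sham (1.71, 1.75, 1.79 and 2.04) and above REST cKO day 7 (1.33, 2.05 and 2.304) in every library. The difference was 0.94 for WT day 7 against sham (SE 0.30, limma adjusted p = 0.458) and -0.87 for REST cKO against WT at day 7 (SE 0.32, limma adjusted p = 0.342). Its day 7 interaction was -1.29 (SE 0.48, limma adjusted p = 0.651). Gna13, the alpha subunit that couples receptors to the GTPase RhoA, had differences between REST cKO and WT of -1.05 at day 3 (SE 0.40, limma adjusted p = 0.680) and -1.11 at day 7 (SE 0.40, limma adjusted p = 0.329). At day 3 its values were 2.28, 3.28 and 3.50 in WT and 1.74, 2.00, 2.08 and 2.92 in REST cKO. The genotypes overlapped at both times.

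Gnas, which encodes the stimulatory alpha subunit and overlaps other transcripts of its imprinted locus, held 1.69, 2.17 and 2.31 in REST cKO sham and -2.25 and 0.77 in REST cKO day 1. The difference of -2.71 (SE 1.13, limma adjusted p = 0.924) was -0.89 without replicate 19 and -4.57 without replicate 25. REST cKO against WT at day 1 gave -2.47 (SE 1.29, limma adjusted p = 0.999), which was -0.39 and -4.07 without the same libraries. Gnai1, an inhibitory alpha subunit, had a fitted difference between REST cKO day 3 and sham of 3.18 as deposited (SE 1.26, limma adjusted p = 0.947) and 2.85 at zero correlation. Its deposited group means lay 2.31 apart, and its libraries overlapped. Its day 7 difference between genotypes was 1.87 as deposited and 0.39 at zero correlation. The deposited difference became 0.81 without WT day 7 replicate 12, 2.997 without replicate 7 and 1.13 after quantile normalization. Gna12, close in role to Gna13, was higher in REST cKO day 3 (1.05, 1.57, 1.79 and 3.39) than in REST cKO sham (-1.10, 0.56 and 0.92). The group means lay 1.82 apart and the fitted difference was 2.22 (SE 1.12, limma adjusted p = 0.999), or 3.73 without REST cKO sham replicate 6 and 1.09 with a term for sex. Its day 3 interaction was 3.22 (SE 1.77, limma adjusted p = 0.957), 5.27 without that library, 1.14 without WT day 3 replicate 16 and 1.80 with a term for sex.

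Gnb2 was lower in REST cKO day 1 (2.44 and 2.45) than in WT day 1 (2.75, 2.78 and 3.16), by a logged difference of -0.50 (SE 0.30, limma adjusted p = 0.999). Among the gamma subunits, Gng10 had the smallest p over the groups (limma adjusted p = 0.629). Gng11, known from vascular cells, was 2.02 higher in WT day 3 than in sham (SE 0.97, limma adjusted p = 0.713), with values of 1.25, 2.36 and 2.55 against -0.62 to 0.96. In the same comparison 2 of 10 endothelial and mural markers were higher at an unadjusted p under 0.05, and their part in Gng11 was not tested.

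Among the RGS genes, Rgs7, a neuronal RGS protein that acts on inhibitory alpha subunits, had the smallest p over the groups (limma adjusted p = 0.409). Its WT sham values were -3.56, -3.04, -2.36 and -1.45, and those of WT day 1 were -0.17, 0.64 and 1.96. All WT day 1 libraries lay above all sham libraries. The group means differed by 3.41 and the fitted difference was 3.67 (SE 1.06, limma adjusted p = 0.569). The mean of the 5 astrocyte markers was also higher without overlap in these libraries, at 1.76 to 2.67 against 0.93 to 1.15 in WT sham, with 4 of 5 at an unadjusted p under 0.05. The neuronal mean was 1.43 to 2.17 against -0.14 to 1.60, with 1 of 8, and the part of either in the day 1 values was not tested. With library weights the limma adjusted p was 0.0962, the 1 case in which a member passed. In REST cKO day 7 Rgs7 stood at -3.36, -3.08 and -2.005. Its day 3 interaction was -4.89 (SE 1.76, limma adjusted p = 0.950). Rgs7bp, the membrane anchor of Rgs7 and its relatives, stood at -3.12, -2.51 and -0.51 in WT day 7 and at -0.49, 0.77 and 1.89 in REST cKO day 7, and its mean genotype difference was 1.66 (SE 0.53, limma adjusted p = 0.445). Its correlation with the share of genes under -2 was -0.497 over 25 libraries and -0.348 without WT day 3 replicate 5.

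Rgs2, an RGS protein of Gq known as a quick response gene, was lower in REST cKO sham (1.95, 2.20 and 2.31) than in WT sham (2.82, 2.85, 3.03 and 3.19), by a logged difference of -0.87 (SE 0.35, limma adjusted p = 0.615). Its mean genotype difference was -0.38 (SE 0.16, limma adjusted p = 0.550). In sham, 5 of 8 neuronal markers were higher and 3 of 10 microglial markers lower in REST cKO at an unadjusted p under 0.05, and their part in the sham differences was not tested. Rgs1, best known from immune cells and microglia, was lower in REST cKO at day 7 (-0.32, 0.89 and 1.13) than in WT (1.46, 1.99 and 2.23), a difference of -1.41 (SE 0.58, limma adjusted p = 0.415) that was -0.93 without REST cKO day 7 replicate 2. Its mean genotype difference was -0.68 (SE 0.30, limma adjusted p = 0.553). The microglial marker mean in those libraries was 3.06 to 3.07 in REST cKO and 3.09 to 3.35 in WT.

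Rgs16, an RGS protein induced in many cells by stimulation, was 1.57 higher after injury over both genotypes (SE 0.75, limma adjusted p = 0.824). Rgs19 was lower in REST cKO day 3 (-0.48, 0.40, 0.88 and 1.01) than in WT day 3 (1.62, 1.80 and 2.63), by a logged difference of -1.53 (SE 0.71, limma adjusted p = 0.780). Rgs20, an RGS protein of the Gz class, differed by 2.11 between genotypes at day 7 as deposited (SE 1.44, limma adjusted p = 0.659) and by 0.27 at zero correlation (SE 1.59). The deposited difference was 0.72 without REST cKO day 7 replicate 13.

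Of the adenylyl cyclases 6 were measured. Adcy6, a calcium-inhibited cyclase, was lower in WT day 3 (-1.95, -1.34 and -1.30) than in REST cKO day 3 (0.66, 1.27, 1.29 and 2.00), a difference of 2.77 (SE 1.15, limma adjusted p = 0.763). Averaged over the 4 times it was 1.67 higher in REST cKO (SE 0.59, limma adjusted p = 0.486), and its difference between SCI and sham over both genotypes was -1.41 (SE 0.63, limma adjusted p = 0.801). In REST cKO, day 1 against sham gave -2.49 (SE 1.26, limma adjusted p = 0.924). Adcy3, the cyclase of olfactory neurons and neuronal cilia, held -2.31, -2.22 and -1.23 in WT day 3. Its REST cKO day 3 values were 0.75, 0.94, 1.55 and 1.69 as deposited, and -0.75 in place of 0.75 at zero correlation, so that the groups stood apart either way.

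The difference of Adcy3 was 3.46 as deposited (SE 1.14, limma adjusted p = 0.650) and 3.10 at zero correlation (SE 1.19, limma adjusted p = 0.685). Adcy1, the calmodulin-stimulated cyclase of cortex, was nearly constant in REST cKO sham (2.63, 2.65 and 2.65) and higher than in WT sham (0.30, 0.87, 1.13 and 2.10). That difference was 1.80 (SE 0.70, limma adjusted p = 0.598). After injury Adcy1 in REST cKO was lower than in sham, by -1.39 at day 3 (SE 0.67, limma adjusted p = 0.999) and by -1.28 at day 7, with no overlap of the libraries. With a term for sex the day 3 difference was -2.30 (limma adjusted p = 0.453). The neuronal marker mean of the same libraries was lower without overlap too, at 1.90 to 2.48 in REST cKO sham, 1.25 to 1.48 at day 3 and 1.33 to 1.81 at day 7, and its part in the Adcy1 difference was not tested.

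Phosphodiesterases remove the signal. Pde2a, which cyclic GMP stimulates, was higher than WT sham (0.70 to 1.66) in WT day 3 (1.71, 1.94 and 2.25) and WT day 7 (1.76, 1.77 and 2.46), by 0.95 (SE 0.45, limma adjusted p = 0.713) and 0.88 (SE 0.41, limma adjusted p = 0.693), the latter 0.57 without WT day 7 replicate 12. Its interactions of genotype and injury were -1.49 at day 3 (SE 0.70) and -1.47 at day 7 (SE 0.65). Pde4a, a phosphodiesterase specific to cyclic AMP, was 2.40, 2.75 and 3.28 in WT day 3 and 0.84 to 1.38 in REST cKO day 3, a difference of -1.91 (SE 0.85, limma adjusted p = 0.780). Pde1a, stimulated by calmodulin, was 1.19 higher after injury over both genotypes (SE 0.57, limma adjusted p = 0.827), or 0.71 without REST cKO sham replicate 18 and 2.01 without REST cKO sham replicate 6.

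Pde11a had an interaction of 3.52 at day 7 (SE 1.70, limma adjusted p = 0.783), or 2.12 without REST cKO sham replicate 6 and 2.04 after quantile normalization. Pde6h, the inhibitory subunit of the cone phosphodiesterase and known from retina, was -3.17, -1.95 and -1.41 in REST cKO sham and 1.25 and 1.58 in REST cKO day 1. Its difference of 3.84 (SE 1.21, limma adjusted p = 0.886) stands beside 3.05 at day 7 (SE 1.17, limma adjusted p = 0.840), and its day 3 interaction was 5.69 (SE 1.79, limma adjusted p = 0.912), or 3.69 with no sequencing components in the fit.

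The Rap GTPases receive the signal of the Epac proteins. Rap1b stayed close to 2.52 throughout (SD 0.345 over 25 libraries), and in WT day 1 it was 2.31, 2.35 and 2.39, just below WT sham (2.51, 2.52, 2.55 and 2.84), by a logged difference of -0.31. Rap1gap2, which switches Rap1 off, was higher in REST cKO sham (2.39, 2.57 and 3.54) than in WT sham (0.45, 2.05, 2.10 and 2.21), by 1.35 (SE 0.55, limma adjusted p = 0.628), or 2.02 without REST cKO sham replicate 6. Rap2b had the smallest p of its list over the groups (limma adjusted p = 0.693), and its day 7 difference between genotypes was 2.80 (SE 1.17, limma adjusted p = 0.420), or 1.49 without WT day 7 replicate 7. Rap2a was lower in REST cKO day 7 (-0.66, -0.59 and 0.58) than in REST cKO sham (0.59, 1.85 and 1.90), by a logged difference of -1.44 that was -0.73 without REST cKO sham replicate 6.

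Over all 25 libraries the members differed greatly in how steady they were. Of the 93, 48 had an SD above 1. Of these 48, 43 had a mean under 1, and all 18 members with a mean above 2 had an SD under 1. A large SD thus went with a low level, and what part counting noise has in it was not tested. The median SD was 1.08 for the members and 1.17 for all genes. Gnai2, Gng5 and Gnb2 had the lowest SDs, 0.211, 0.224 and 0.254, and Adcy4, Rgs16 and Rapgef4 the highest, 1.82, 1.79 and 1.78.

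Other genes of the pathway, from lists of receptors, receptor kinases, PKA inhibitors, CREB factors, cyclic nucleotide channels and Rap regulators, gave no calls either. Of 114 listed genes 53 were measured, and 0 passed an adjusted p of 0.1 by limma in the 15 tests. At an unadjusted p under 0.05, between genotypes 4 of 53 passed at day 7 (7.55%, against 9.95% of all genes), 3 in the sham groups (5.66% against 6.91%), 3 of the genes at day 1 (5.66% against 3.81%), again 3 at day 3 (5.66% against 6.37%) and 1 for the mean of the 4 times (1.89% against 8.53%). After injury in WT there were 4 at day 1 (7.55% against 6.43%), 3 at day 3 (5.66% against 6.90%) and 3 at day 7 (5.66% against 6.89%). After injury in REST cKO there were 5 at day 1 (9.43% against 5.29%), 4 at day 3 (7.55% against 4.65%) and 2 at day 7 (3.77% against 5.67%). SCI against sham gave 4 (7.55% against 5.97%), the interaction 3 at day 3 (5.66% against 5.15%) and 1 at day 7 (1.89% against 6.35%), and any difference among the groups 5 (9.43% against 8.50%). Between genotypes at day 7 the 4 were Creb1, the transcription factor that PKA phosphorylates (1.56 higher in REST cKO, SE 0.52, limma adjusted p = 0.284), Sik3, a kinase of the CREB coactivators (2.18 higher, SE 0.82, limma adjusted p = 0.353), Grm7, a glutamate receptor that lowers cyclic AMP (3.63 higher, SE 1.24), and Rassf5, a Rap effector (lower by a logged difference of -2.66, SE 0.91). Grm7 and Rassf5 are among the 140 genes that correlated with a component, as are Grm2 and Afdn of the same lists. The 3 in sham were Drd1, Grk4 and Pkib, and the 1 for the mean was Oprl1.

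Rest was measured in all groups. It averaged -0.69 ± 0.58 (SD, n = 4) in WT sham and -1.32 ± 1.16 (n = 3) in REST cKO sham, -0.12 ± 1.08 (n = 3) and -0.42 ± 0.02 (n = 2) at day 1, 1.69 ± 1.16 (n = 3) and -0.55 ± 0.71 (n = 4) at day 3, and 1.77 ± 1.33 (n = 3) and -0.84 ± 0.46 (n = 3) at day 7. The limma adjusted p-values for REST cKO against WT ran from 0.401 at day 7 to 0.999 at day 1. Rest is one of the 140 genes whose deposited values correlated with a component, and reads at the 3′ end may lie outside the deleted part, so that these values do not settle the labels.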

How the data were processed

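RNA of sorted neurons was made into 3′ tag libraries, aligned to GRCm38 and quantified by the authors with STAR and Salmon, scaled with DESeq2 and adjusted for unwanted variation. Versions are not given in the sources used here. The deposited table holds 1 normalised log2 value per gene and library, for 9955 rows. The 24 rows without a symbol (0.241%) were left out. The deposited table also holds the authors' own fold changes and p-values, which were not used. No read totals were used, so the counting precision of each library is unknown.

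The log2 values were fitted with limma 3.58.1 in R 4.3.3 on 8 group means and 2 sequencing components from the labels, with a mean-variance trend, over 25 libraries, and two-sided p-values were adjusted by Benjamini-Hochberg over 9931 genes (threshold 0.1). Replicate numbers are sample numbers that no groups share, and p-values measure the spread between samples, for which the study names mice as the unit while the labels do not name the animal of each. Tests were checked on simulated data. The alternatives were no components, a batch or sex term, library weights, a minimum mean of 0, quantile normalization, no trend and each library left out. Because most genes had zero correlation with the components, the fit with no components may not show values free of adjustment. Replacing 6 values in 5 members was added after the data were seen. Members and lists were chosen with earlier results of these data known. Named members are 9 cyclic AMP effectors, any member past the threshold, for each comparison the 2 higher and 2 lower members of smallest p whose libraries do not overlap, the smallest F-test p of each role, and the 5 most and 3 least like Rapgef4. The positions are from GENCODE and the promoters from RefSeq, both on GRCm38.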

Additional observations from a re-analysis of the deposited data

Results flagged for a closer look

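In 4 cases a value stood far from the other 3 of its group, out of 84 groups of 4 examined, where chance flags about 1 in 20. In WT sham, replicate 3 held 2.84 for Rap1b beside 2.51 to 2.55 in the others, a gap of 0.883 of the group's range. The same library held 0.45 for Rap1gap2 beside 2.05 to 2.21, a gap of 0.91. Rgs16 in WT sham stood at -0.83 in replicate 17 and from -3.33 to -3.22 in the others, a gap of 0.957. In REST cKO day 3, Akap9, a centrosomal AKAP, was 1.65 in replicate 20 beside 1.07 to 1.14, a gap of 0.892. No member's response to injury differed between genotypes past the adjusted threshold in the limma interaction tests at day 3 or day 7. At an unadjusted p under 0.05 there were 3 members at day 3 (3.23%, against 5.15% of all genes). At day 7 there were 8 (8.6% against 6.35%), or 7 with the 5 members at zero correlation (7.53% against 6.34%).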

How the results depend on the processing

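The count of members past the threshold stayed at 0 in all 15 tests under every alternative except 1. With library weights, 1 member, Rgs7, passed for WT day 1 against sham, with a difference of 3.75 and a limma adjusted p of 0.0962. With any 1 library left out the count was 0 in every test, from 0 to 0. The 33 settings were run on 72 differences of members, and 28 of 2353 values, in 5 of these differences, changed sign. The day 3 genotype difference of Rapgef4 was -0.047 without WT day 3 replicate 22 and ran up to 1.42 without replicate 5. The other 4 are mean genotype differences of effectors. That of Rapgef3, 0.04, ran from -0.31 to 0.31 with 1 library left out and was -0.28 with a term for batch, -0.17 with one for sex, -0.086 with library weights and -0.22 after quantile normalization. That of Prkaca, -0.01, ran from -0.15 to 0.089 and was 0.077 with a term for sex. Those of Prkacb and Prkar1a ran from -0.0099 to 0.26 and from -0.10 to 0.19 with 1 library left out. The genotype difference of Rapgef4 over the 4 times ran from 1.94 to 2.73 with 1 library left out, and that of Akap7 at day 7 from 3.24 to 4.45, the higher without WT day 7 replicate 4. Of 553 values from settings that leave out no library, 35 in 18 differences moved by over 1.5 times, 20 of them in the mean genotype differences of 6 effectors. WT day 7 against sham of Prkar2b was -1.29 as deposited, -0.65 at zero correlation, -2.18 without WT sham replicate 10, -1.97 without WT day 7 replicate 4 and -0.82 without WT day 7 replicate 7. The count at an unadjusted p under 0.05 moved more. At day 7 between genotypes it ran from 10 of 68 members with a mean of at least 0 (14.7%, against 9.29% of all genes in that setting) to 15 of 93 without REST cKO day 3 replicate 27 (16.1% against 9.90%). For WT day 1 against sham it ran from 2 without WT sham replicate 3 (2.15% against 4.84%) to 15 with library weights (16.1% against 10.5%), so that the share over all genes moved the same way. For the interaction at day 7 it ran from 2 without REST cKO sham replicate 6 (2.15% against 7.27%) to 11 without WT day 7 replicate 7 (11.8% against 6.65%). The lowest and highest counts of the other tests follow, each with the share of members against that of all genes in its setting. For WT day 3 against sham they were 2 (2.15% against 6.25%) and 7 (7.53% against 7.21%). For WT day 7 they were 3 (3.23% against 5.43%) and 11 (11.8% against 7.60%). REST cKO day 1 gave 2 of those 68 (2.94% against 5.30%) and 8 (8.60% against 6.38%). REST cKO day 3 gave 0 of 68 (0% against 4.39%) and 5 (5.38% against 5.91%). REST cKO day 7 gave 2 of 68 (2.94% against 5.19%) and 8 (8.60% against 5.88%). Between genotypes the counts were 4 (4.30% against 6.88%) and 8 (8.60% against 6.73%) in sham. At day 1 they were 0 of 68 (0% against 3.56%) and 5 (5.38% against 4.63%), and at day 3 they were 4 (4.30% against 5.36%) and 10 (10.8% against 7.00%). For the mean of the 4 times they were 3 (without REST cKO day 7 replicate 2, 3.23% against 6.36%) and 13 (with a term for sex, 14% against 8.47%). SCI against sham gave 0 of 68 (0% against 6.07%) and 4 (4.30% against 5.98%). The interaction at day 3 gave 1 of 68 (1.47% against 4.98%) and 6 (6.45% against 6.62%). Any difference among the groups gave 5 of 68 (7.35% against 8.91%) and 12 (12.9% against 8.98%). The low counts of WT day 1 and WT day 3 both came without WT sham replicate 3. No paired analysis was possible because the groups share no replicate numbers. Depth is unknown, and what it limits was not tested. The share of genes under -2 in each library is given as a value only. With the values at zero correlation, chosen after seeing the data, 2 of 70 differences of the 5 members changed sign, both in Gnai1. WT day 7 against sham went from -0.49 to 1.20 and the mean genotype difference from 0.13 to -0.15.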
